A study of Mus musculus with 6 samples.

Results

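The genes described here are 44 interferon-stimulated antiviral genes, taken by symbol from the deposited count table of 55487 genes. All 44 symbols were found, each on 1 row. They were measured by RNA sequencing in primary fibroblasts from the lungs of wild-type C57BL/6 mice, with 3 libraries in each of 2 groups. Both groups were grown in 10% serum and starved for 24 h in 0.1% serum, and then received either PBS or 1 µg/mL of rmCIRBP, recombinant CIRBP (the cold-inducible RNA-binding protein) of the mouse, for 24 h. The age of the mice, and whether replicates came from separate animals or cultures, were not given in the sources used here, so p-values measure the spread between these libraries, which may be technical.

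Interferons are secreted proteins that warn cells of viral infection. Type I interferons bind the receptor IFNAR1 and IFNAR2, whose JAK kinases phosphorylate STAT proteins, and these join IRF9 on a DNA element called the interferon-stimulated response element (ISRE). The genes turned on in this way encode sensors of foreign nucleic acid, proteins that block viral entry, translation, replication or budding, and regulators that prolong or limit the response. Fibroblasts carry this system, and many of its genes can also be turned on by interferon-gamma or directly by the factors IRF1, IRF3 and IRF7.

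Depth was 12105584 to 14262375 counts per library, and levels are given as CPM, which are counts scaled by each library's effective size. A gene with no count could have been present at up to 3 counts, which were worth 0.205 to 0.250 CPM, a limit that covers counting error only. The fibroblast genes Col1a1, Col1a2, Col3a1, Pdgfra, Pdgfrb, Dcn and Thy1 were present in both groups, and the summed level of 8 fibroblast markers was 23600 to 28600 CPM in PBS and 19900 to 26600 CPM in rmCIRBP, whereas Lum, a further marker, averaged only 1.52 and 1.59 CPM. Among them Thy1 was called lower (mean 161 CPM in PBS and 69.4 CPM in rmCIRBP) and Dcn higher (103 and 238 CPM). Libraries PBS 1 and rmCIRBP 2 had the highest sums of smooth muscle and pericyte markers (8 genes), at 5200 and 9860 CPM against 1930 to 4550 CPM in the other 4 libraries. The sum in rmCIRBP 1, at 4550 CPM, was not far below that in PBS 1. Of these markers Cspg4 was called lower (mean 9.09 CPM in PBS and 2.19 CPM in rmCIRBP). Summed macrophage markers were at 115 to 150 CPM in PBS and 68.0 to 129 CPM in rmCIRBP, and of the 6 tested Adgre1 was called higher and Mrc1 lower. Neutrophil markers summed to 0 to 0.25 CPM in PBS and 1.23 to 1.69 CPM in rmCIRBP, and 5 of 8 (S100a9, Ly6g, Cxcr2, Elane and Ngp) had no count in any library. Endothelial markers summed to 20.4 to 27.8 CPM in PBS and 7.01 to 8.46 CPM in rmCIRBP, with Kdr and Tek called lower and Emcn and Cldn5 at 0. Epithelial markers summed to at most 6.10 CPM and lymphocyte markers to at most 1.32 CPM, with Cd3e and Krt8 at 0. Dendritic cell markers, mostly Tcf4, summed to 219 to 290 CPM in PBS and 174 to 238 CPM in rmCIRBP. Whether fibroblasts or other cells made these marker transcripts was not tested, nor was the part of any other cells in the results below.

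Several of these genes carry, before their start, the letters of the element through which interferon acts. They are shown for the neighbouring IFIT genes, which differ in them, and for some sensors, some direct effectors and Isg15. RefSeq (GRCm38.p6) gave promoter windows, from 250 bases before to 50 after a transcription start, for 31 of the 44 genes, in 41 windows. The ISRE core was searched on both strands as GAAA, any 2 bases and GAAA again. It was found in the windows of 12 of the 31 genes, and in 29.3% of the 41 windows against 3.4% of all 32851 windows of the same length. Each stretch below lies before the start and is read 5′ to 3′ on the strand of its gene. Capitals mark the ISRE core, which overlaps with itself in Isg15 (3 matches) and Bst2 (2 matches). In Ifit2 they mark instead a GAS element, the STAT dimer site searched as TTCNNNGAA, joined to an overlapping match of the NF-kB site.
Ifit1, chr19:34640769-34640828, plus strand: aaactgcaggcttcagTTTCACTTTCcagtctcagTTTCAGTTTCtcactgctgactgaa
Ifit3, chr19:34583365-34583424, plus strand: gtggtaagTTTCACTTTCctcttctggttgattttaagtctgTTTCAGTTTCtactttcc
Ifit3b, chr19:34607761-34607820, plus strand: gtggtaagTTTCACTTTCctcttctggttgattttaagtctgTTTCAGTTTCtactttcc
Ifit2, chr19:34550444-34550503, plus strand: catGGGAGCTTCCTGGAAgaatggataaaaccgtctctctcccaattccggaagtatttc
Isg15, chr4:156200856-156200915, minus strand: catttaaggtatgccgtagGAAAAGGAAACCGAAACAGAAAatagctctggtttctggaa
Rsad2, chr12:26456538-26456597, minus strand: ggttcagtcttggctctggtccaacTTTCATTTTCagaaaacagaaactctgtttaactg
Bst2, chr8:71537565-71537624, minus strand: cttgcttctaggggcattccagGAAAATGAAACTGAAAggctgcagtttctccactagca
Ddx60, chr8:61928026-61928085, plus strand: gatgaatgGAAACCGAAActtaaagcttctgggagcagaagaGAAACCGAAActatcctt
Ifi203, chr1:173942493-173942552, minus strand: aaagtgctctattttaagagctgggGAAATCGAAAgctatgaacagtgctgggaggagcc

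The printed stretches of Ifit3 and Ifit3b are the same in 60 of 60 bases. The GAS letters were in the windows of 6 of the 31 genes and in 14.6% of their windows, against 8.3% of all windows, and the NF-kB site likewise in 6 genes and 14.6% of windows, against 8.5%. These matches are letters in a window and not evidence of binding. The 12 genes with an ISRE core had a median log2 fold change of 1.35 after rmCIRBP (10 called higher), and the 18 tested genes whose window lacked those letters had a median of 1.07 (14 called higher). The table of windows did not list Zbp1, Mx1, Mx2, Rtp4, Usp18, Dhx58, Ifi204, Ifi27, Ifi27l2a, Parp9, Parp10, Parp14 and Tor3a.

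The antiviral genes rose broadly after rmCIRBP. Of the 44 genes, 43 passed the filter on low counts, and 35 of these 43 were called higher (edgeR quasi-likelihood, 0.05 after Benjamini-Hochberg adjustment), where 6.74% of the 15801 genes tested were called higher. None was called lower, where 4.77% of all genes tested were. By the unadjusted edgeR p under 0.05 the count lower was 1, which was Ifi27, and DESeq2 also called 1 lower and limma voom 0. The median log2 fold change of the 43 was 1.26, against -0.01 over all genes tested. The 3 rmCIRBP libraries all lay above the 3 PBS libraries for 37 of the 43 genes, compared with 17.5% of all genes tested, and all below them for 1 gene, compared with 17.1%. With upper quartile scaling the calls over all genes split into 925 higher and 1022 lower, against 1065 and 753, and the number of antiviral genes called higher was 35 with either scaling.

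The size of the change differed widely between genes, from -0.56 to 3.23 on the log2 scale. Of the 43, 27 were called and at least 2-fold higher (3.98% of all genes tested), and 8 were called and at least 4-fold higher (1.88% of all genes tested). The 8 were Mx1, Zbp1, Ifi44, Parp14, Cmpk2, Sp110, Rsad2 and Ifi204. These 8 were at 2.39 to 29.3 CPM in PBS (median 10.3), whereas the 8 genes called with less than a 2-fold increase were at 11.4 to 124 CPM (median 64.2), and the 8 tested genes that were not called had a median of 100 CPM. The PBS level is also the base of the fold change, so such a difference is partly built in. All 43 had at least 10 counts in every PBS library, the lowest being 13 for Mx1, so none entered the test through its rmCIRBP values alone.

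**Figure D1:**
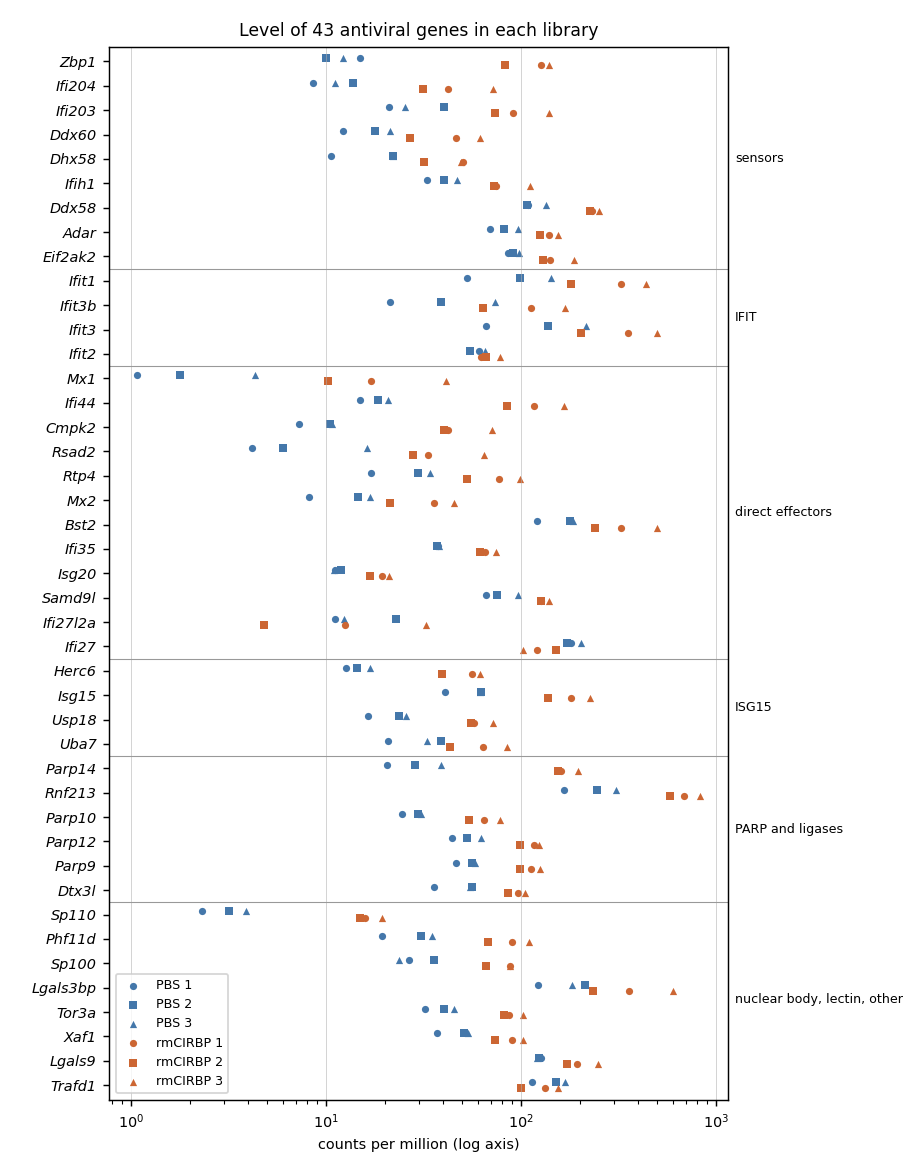
Level of the 43 tested antiviral genes in each library, in CPM on a log axis. Circles, squares and triangles are replicates 1, 2 and 3, PBS in blue and rmCIRBP in orange, with genes grouped by role. Orange points lie to the right of all blue points for 37 genes, and to the left for Ifi27.

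The number of calls changed with the library left out, and each such fit had fewer libraries from which to measure the spread. Without PBS 2 edgeR called 20 of the genes higher and without rmCIRBP 1 it called 21, while without PBS 1, PBS 3, rmCIRBP 2 or rmCIRBP 3 it called 30, 28, 39 or 27. Over all genes, the number called in either direction was 1818, and it was 723 without PBS 2, 863 without PBS 3 and 742 without rmCIRBP 1, so calls were lost over all genes as well. No gene called higher changed its direction when any 1 library was left out, and the median log2 fold change of the 43 stayed between 1.03 and 1.47. It was 1.33 without PBS 2 and 1.27 without rmCIRBP 1, the fits with the fewest antiviral calls. Without both PBS 1 and rmCIRBP 2, the libraries with the most smooth muscle marker RNA (an alternative chosen after seeing the data), 39 were called higher and 1 lower, and the number over all genes was 2802.

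Sensors of foreign RNA and DNA rose together. All 9 sensors and sensor regulators that were tested were called higher, with log2 fold changes from 0.75 to 3.22 (median 1.26). Zbp1, which senses Z-form nucleic acid and can start necroptosis (chromosome 2, 173206612 to 173218923, GRCm38), was at 15.0, 10.0 and 12.2 CPM in PBS 1, 2 and 3. It was at 126, 82.7 and 139 CPM in rmCIRBP 1, 2 and 3. Even the lowest rmCIRBP library lay far above the highest PBS library, and the log2 fold change was 3.22 ± 0.23 SE (adjusted p = 0.000219 in edgeR's test). Ddx58 encodes RIG-I, the sensor of RNA with a 5′ triphosphate, and was at 109, 107 and 134 CPM in PBS against 231, 225 and 252 CPM in rmCIRBP. Its doubling (log2 fold change 1.02 ± 0.12 SE, edgeR adjusted p = 0.00247) had little spread between replicates. Ifi204, a DNA-binding PYHIN protein, was at 8.57, 13.7 and 11.1 CPM in PBS and at 42.4, 31.3 and 71.8 CPM in rmCIRBP, again without overlap (log2 fold change 2.12 ± 0.32 SE, edgeR adjusted p = 0.00580).

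The remaining sensors were called higher with log2 fold changes from 0.75 to 1.81. Ifih1, which encodes the long double-stranded RNA sensor MDA5, rose by 1.11 on the log2 scale, and Dhx58, which encodes the third member of that family, LGP2, by 1.26. Ddx60, a helicase linked to RIG-I signalling, rose by 1.38, and Ifi203, a PYHIN relative of Ifi204, by 1.81. Eif2ak2, the kinase PKR that halts translation on double-stranded RNA, rose by 0.75, and Adar, which edits such RNA and so hides it from MDA5, by 0.76. The call of Ifih1 ended without PBS 2 (edgeR adjusted p = 0.0575), and that of Adar without PBS 2 (0.0675) or rmCIRBP 1 (0.0584). For Eif2ak2 it ended without PBS 2 (0.0767), PBS 3 (0.0566) or rmCIRBP 1 (0.0523). Dhx58 was not called without PBS 2 (edgeR adjusted p = 0.0791), PBS 3 (0.0708), rmCIRBP 1 (0.106) or rmCIRBP 3 (0.0706), nor with the replicate number as a block (0.0577). Ddx60 lost its call without any one of PBS 1, 2 or 3 (edgeR adjusted p = 0.0552, 0.100 and 0.0587), rmCIRBP 1 (0.0850) or rmCIRBP 3 (0.0599). Dhx58 overlaps an antisense gene, and Adar overlaps Chrnb2 on the other strand, and without a stated strand setting their reads cannot be told apart.

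Trex1, the exonuclease that clears DNA from the cytosol, had 0 counts in all 6 libraries and was not tested. Its gene (chromosome 9, 109057933 to 109059734) lies inside Atrip on the same strand, and 95.8% of the 50-base stretches of its transcripts are also in transcripts of Atrip. The 0 therefore gives no measure of Trex1.

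Of the IFIT family 1 of 4 genes was called higher. IFIT proteins bind viral RNA that lacks the cap marks of host messages, and their 4 genes lie side by side on chromosome 19. Ifit1 (34640871 to 34650009) was at 52.8, 99.3 and 143 CPM in PBS and at 325, 180 and 437 CPM in rmCIRBP. The groups did not overlap, although rmCIRBP 2 was close to the highest PBS library, and the log2 fold change was 1.67 ± 0.41 SE (adjusted p = 0.0376 in edgeR's test). That call ended without PBS 1 (edgeR adjusted p = 0.0529), PBS 2 (0.129), rmCIRBP 1 (0.0992) or rmCIRBP 3 (0.0779).

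Ifit3 was at 66.4, 137 and 215 CPM in PBS and at 354, 204 and 499 CPM in rmCIRBP. Here rmCIRBP 2 lay below PBS 3, so the groups overlapped, and edgeR did not call the gene (log2 fold change 1.33 ± 0.44 SE, adjusted p = 0.0933). Its near copy Ifit3b was at 21.3, 39.1 and 73.4 CPM in PBS and at 113, 63.8 and 168 CPM in rmCIRBP, with the same overlap (log2 fold change 1.36 ± 0.47 SE, edgeR adjusted p = 0.102). Of the 50-base stretches of Ifit3 transcripts, 51.2% also occur in Ifit3b, so the division of reads between these 2 genes is uncertain. DESeq2 called Ifit3 (adjusted p = 0.0108), and edgeR called both when rmCIRBP 2 was left out (0.0406 for Ifit3 and 0.0447 for Ifit3b). With the replicate block, edgeR called Ifit3b (adjusted p = 0.0423).

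Ifit2, which like its relatives binds viral RNA, was also not called, with 61.2, 54.5 and 65.6 CPM in PBS and 62.5, 66.4 and 78.5 CPM in rmCIRBP. The groups overlapped, and the log2 fold change of 0.19 ± 0.12 SE (adjusted p = 0.341 in edgeR's test) had a 95% interval from -0.09 to 0.48, which excludes a 2-fold change. The difference between Ifit2 and its neighbours was not tested. The interval of Ifit2 overlaps those of Ifit3, from 0.31 to 2.36, and Ifit3b, from 0.28 to 2.44. It does not overlap that of Ifit1, from 0.73 to 2.61. Of the windows searched, neither of the 2 for Ifit2, which are printed above only in part, held the ISRE core letters, while those of Ifit1, Ifit3 and Ifit3b held 2 each. Among the tested antiviral genes with a window, 10 of 12 with these letters and 14 of 18 without them were called higher. A link between the letters and the response was not tested.

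Genes that act directly on viruses rose with few exceptions. Of 12, 10 were called higher (median log2 fold change of the 12, 1.25). Ifi44, an interferon-induced protein reported to restrain virus replication (chromosome 3, 151730922 to 151749960), was at 14.9, 18.5 and 20.9 CPM in PBS and at 116, 84.4 and 166 CPM in rmCIRBP. The lowest rmCIRBP library was thus well above every PBS library (log2 fold change 2.75 ± 0.26 SE, edgeR adjusted p = 0.000749). Cmpk2, a mitochondrial nucleotide kinase next to Rsad2 on chromosome 12, was at 7.24, 10.5 and 10.8 CPM in PBS and at 42.2, 40.5 and 71.3 CPM in rmCIRBP (log2 fold change 2.43 ± 0.26 SE, edgeR adjusted p = 0.00146). Its groups did not overlap either. Ifi35 was at 37.7, 37.3 and 37.8 CPM in PBS and at 65.7, 62.0 and 74.3 CPM in rmCIRBP, a small but even increase (log2 fold change 0.84 ± 0.10 SE, edgeR adjusted p = 0.00263), in a locus that an antisense gene overlaps.

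Mx1 and Rsad2 had large and less certain increases, and are given in full after their values were seen. Mx1 encodes a dynamin-like GTPase that blocks influenza virus, and C57BL/6 mice are known to carry a defective allele of it. The deposited table lists Mx1 and Mx2 as polymorphic pseudogenes. Mx1 was at 1.08, 1.79 and 4.31 CPM in PBS and at 17.1, 10.3 and 41.5 CPM in rmCIRBP, with no overlap but a 4.04-fold range among the rmCIRBP libraries. Its log2 fold change was 3.23 ± 0.63 SE (adjusted p = 0.0171 in edgeR's test), and it was 2.49 without rmCIRBP 3 and 3.99 without PBS 3. The call of Mx1 ended without PBS 2 (edgeR adjusted p = 0.0850) and in limma voom (0.0504).

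Rsad2 encodes viperin, which makes a chain-terminating nucleotide. It was at 4.16, 6.02 and 16.3 CPM in PBS and at 33.2, 28.1 and 65.0 CPM in rmCIRBP, where PBS 3 stood above the other PBS libraries but below all rmCIRBP libraries. The log2 fold change was 2.24 ± 0.52 SE (adjusted p = 0.0309 in edgeR's test), and it was 3.05 without PBS 3. The call ended without PBS 1 (edgeR adjusted p = 0.0523), PBS 2 (0.123), rmCIRBP 1 (0.0669) or rmCIRBP 3 (0.0657).

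The other direct effectors called higher had log2 fold changes from 0.72 to 1.50. Bst2, tetherin, which holds budding virus at the cell surface, had the highest level per length of all 44 genes after rmCIRBP, at 393 CPM per kb of exon against 179 in PBS, and rose by 1.14 on the log2 scale. Rtp4 rose by 1.50, Mx2 by 1.37, Isg20, a 3′ exonuclease that degrades viral RNA, by 0.74, and Samd9l, a restriction factor for poxviruses, by 0.72. Bst2 was not called without PBS 1 (edgeR adjusted p = 0.0717), PBS 2 (0.105), PBS 3 (0.0934), rmCIRBP 1 (0.0871) or rmCIRBP 3 (0.0634), and Mx2 was lost without the same 5 libraries (0.0552, 0.107, 0.0685, 0.102 and 0.0794). The call of Isg20 ended without PBS 2 (edgeR adjusted p = 0.0534), PBS 3 (0.0637), rmCIRBP 1 (0.0695) or rmCIRBP 3 (0.0520), and with the replicate block (0.0528). That of Samd9l ended without PBS 2 (edgeR adjusted p = 0.0899), rmCIRBP 1 (0.0664) or rmCIRBP 3 (0.0512), and that of Rtp4, which overlaps Masp1 on the other strand, without PBS 2 (0.0654) or rmCIRBP 1 (0.0582).

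The 2 direct effectors that were not called are neighbours on chromosome 12, from a family of small mitochondrial and nuclear membrane proteins. Ifi27 (103434211 to 103440239) was at 180, 172 and 204 CPM in PBS and at 121, 152 and 103 CPM in rmCIRBP. It was the one gene of the 43 whose rmCIRBP libraries all lay below its PBS libraries, with a log2 fold change of -0.56 ± 0.16 SE (adjusted p = 0.0558 in edgeR's test). DESeq2 (adjusted p = 0.0173), edgeR with upper quartile scaling (0.0424) and edgeR without rmCIRBP 2 (0.0117) called it lower, as did edgeR with no filter on low counts (0.0253).

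Ifi27l2a was at 11.1, 23.0 and 12.4 CPM in PBS and at 12.6, 4.84 and 32.5 CPM in rmCIRBP, a 6.70-fold range within rmCIRBP that spanned all PBS values. Its log2 fold change of 0.10 ± 0.60 SE (adjusted p = 0.928 in edgeR's test) had a 95% interval from -1.28 to 1.49, so that these libraries do not exclude a 2-fold change in either direction. The estimate was -0.83 without rmCIRBP 3, and also below 0 in 4 further alternatives.

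**Figure D2:**
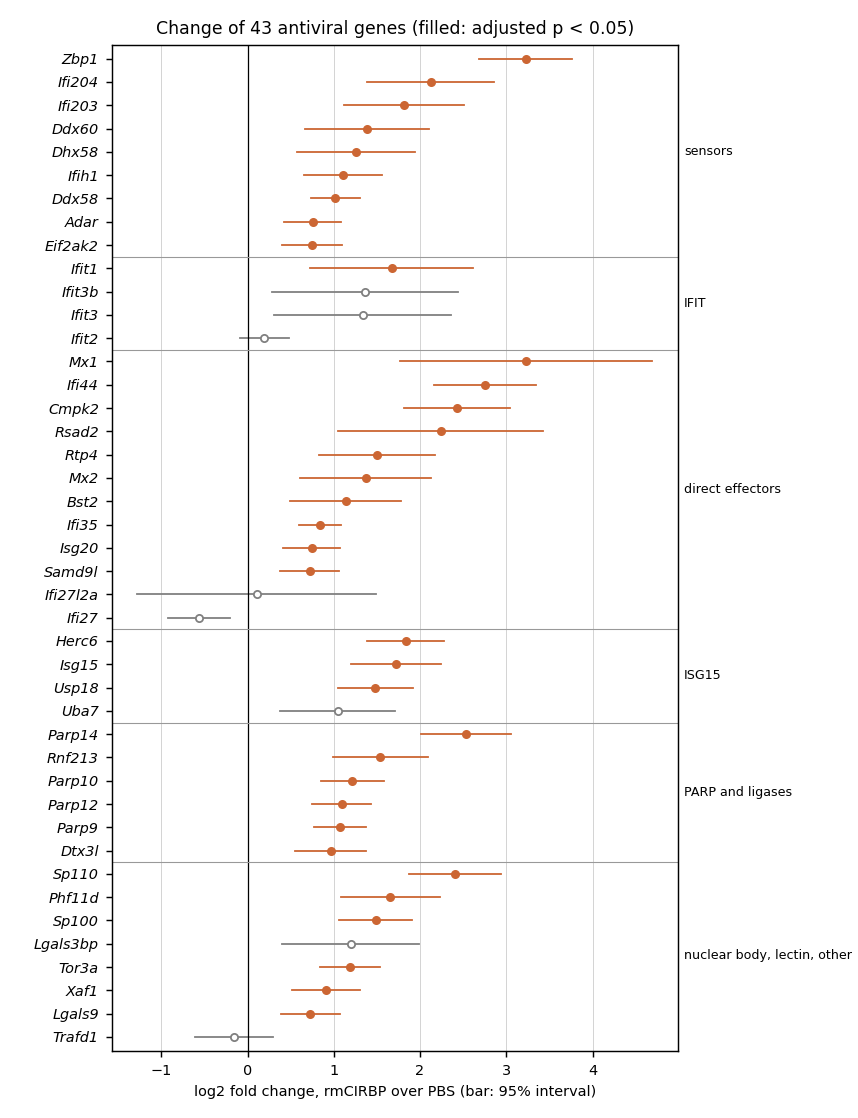
Log2 fold change of each tested antiviral gene, rmCIRBP over PBS, with bars for the 95% interval from edgeR's fit and genes grouped by role. Filled points passed an adjusted p of 0.05 and open points did not. The 35 filled points all lie above 0, and Ifi27 and Trafd1 have estimates below 0.

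ISG15 and most of its enzymes rose. ISG15 is a ubiquitin-like protein that is attached to other proteins, with UBA7 as its activating enzyme, HERC6 as the mouse ligase and USP18 as the protease that removes it, and USP18 also damps the interferon receptor. Of the 4 genes 3 were called higher. Isg15 (chromosome 4, 156199455 to 156200796) was at 40.9, 62.6 and 61.7 CPM in PBS and at 181, 137 and 226 CPM in rmCIRBP, without overlap (log2 fold change 1.72 ± 0.23 SE, edgeR adjusted p = 0.00334). Per length it was second to Bst2 after rmCIRBP, at 240 CPM per kb of exon. Herc6 was at 12.7, 14.4 and 16.9 CPM in PBS and at 56.4, 39.3 and 61.5 CPM in rmCIRBP (log2 fold change 1.83 ± 0.19 SE, edgeR adjusted p = 0.00129). Usp18, which a noncoding gene overlaps on the other strand, was at 16.4, 23.8 and 25.8 CPM in PBS and at 57.5, 55.3 and 72.1 CPM in rmCIRBP (log2 fold change 1.48 ± 0.19 SE, edgeR adjusted p = 0.00290). The ligase and the protease thus both stood above PBS in every rmCIRBP library. Uba7 was at 20.9, 39.1 and 33.1 CPM in PBS and at 64.0, 43.1 and 85.2 CPM in rmCIRBP. Its groups did not overlap, but edgeR did not call it (log2 fold change 1.05 ± 0.29 SE, adjusted p = 0.0553), whereas DESeq2 did (0.00628), as did edgeR without rmCIRBP 2 (0.0139).

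The ADP-ribosyltransferases and ubiquitin ligases of this response all rose, 6 of 6, with a median log2 fold change of 1.15. Parp14, a mono-ADP-ribosyltransferase, was at 20.6, 28.5 and 38.8 CPM in PBS and at 161, 155 and 196 CPM in rmCIRBP. Its rmCIRBP libraries were close to one another and far from PBS (log2 fold change 2.54 ± 0.23 SE, edgeR adjusted p = 0.000620). Parp9, which works in a complex with the ligase encoded by Dtx3l, was at 46.4, 56.1 and 57.9 CPM in PBS and at 113, 99.0 and 125 CPM in rmCIRBP (log2 fold change 1.07 ± 0.13 SE, edgeR adjusted p = 0.00247). Parp10 was at 24.6, 29.5 and 30.7 CPM in PBS and at 64.6, 54.3 and 78.4 CPM in rmCIRBP (log2 fold change 1.22 ± 0.16 SE, edgeR adjusted p = 0.00328). None of these 3 genes overlapped between groups. Dtx3l rose by 0.96 on the log2 scale, Parp12 by 1.09, and Rnf213, a very large ligase that was at 578 to 826 CPM in rmCIRBP, by 1.54. Parp9 and Dtx3l lie head to head on chromosome 16 and share 682 bases, and Parp10 overlaps Plec on the same strand, so some of their reads are uncertain. Rnf213 overlaps the transcript A930037H05Rik on the other strand. The call of Dtx3l ended without rmCIRBP 1 (edgeR adjusted p = 0.0553).

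Of 8 nuclear body, lectin and other regulator genes, 6 rose. Sp110, a nuclear body protein, was at 2.33, 3.17 and 3.90 CPM in PBS and at 15.8, 14.9 and 19.4 CPM in rmCIRBP. It was low in both groups, but the increase was even (log2 fold change 2.40 ± 0.23 SE, edgeR adjusted p = 0.000870), and 36.0% of its 50-base stretches occur in other genes, mostly Gm16026. Sp100, its relative in PML nuclear bodies, was at 26.7, 36.0 and 23.8 CPM in PBS and at 88.3, 65.9 and 87.4 CPM in rmCIRBP (log2 fold change 1.48 ± 0.19 SE, edgeR adjusted p = 0.00264). Tor3a, a torsin ATPase, was at 32.4, 40.4 and 45.4 CPM in PBS and at 86.6, 81.5 and 102 CPM in rmCIRBP (log2 fold change 1.19 ± 0.15 SE, edgeR adjusted p = 0.00274). All 3 were higher in every rmCIRBP library than in any PBS library. Phf11d rose by 1.65 on the log2 scale, Xaf1, a proapoptotic partner of XIAP, by 0.90, and Lgals9, the galactose-binding lectin galectin 9, by 0.73. The call of Xaf1 ended without PBS 2 (edgeR adjusted p = 0.0524) or rmCIRBP 1 (0.0589), and that of Lgals9 without PBS 2 (0.0750), PBS 3 (0.0799) or rmCIRBP 1 (0.0582).

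Lgals3bp, a secreted glycoprotein that binds galectin 3, was at 122, 213 and 183 CPM in PBS and at 357, 234 and 600 CPM in rmCIRBP. The groups did not overlap, but edgeR did not call it (log2 fold change 1.20 ± 0.34 SE, adjusted p = 0.0617), whereas DESeq2 did (0.00406), as did edgeR without rmCIRBP 2 (0.0114). Trafd1, a negative regulator of innate signalling, was at 114, 152 and 169 CPM in PBS and at 133, 100 and 155 CPM in rmCIRBP. These values overlapped throughout (log2 fold change -0.16 ± 0.20 SE, edgeR adjusted p = 0.629), with a 95% interval from -0.62 to 0.29.

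The highest and the lowest rmCIRBP library were the same for nearly all of the genes, and those of PBS for most of them. Among the rmCIRBP libraries, rmCIRBP 3 was the highest for 40 of the 43 tested genes and rmCIRBP 2 the lowest for 41, whereas over all genes tested these libraries were highest for 36.4% and lowest for 40.6%. Over the 1065 genes called higher, rmCIRBP 3 was the highest for 43.4% and rmCIRBP 2 the lowest for 50%. Among the PBS libraries, PBS 1 was the lowest for 35 of the 43 and PBS 3 the highest for 32, compared with 37.2% and 32.0% of all genes tested. The median departure from the mean log2 CPM of the group was -0.29 in rmCIRBP 2 and 0.30 in rmCIRBP 3, and it was -0.36 in PBS 1 and 0.22 in PBS 3. These counts describe genes of the same libraries, which are not independent, and carry no test.

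The summed level of the 44 genes was 1960, 2590 and 2940 CPM in PBS 1, 2 and 3, and 5440, 4310 and 7030 CPM in rmCIRBP 1, 2 and 3. The library with the lowest sum in each group, PBS 1 and rmCIRBP 2, was also the one with the highest sum of smooth muscle markers (5200 CPM against 2510 and 2640 in PBS, and 9860 CPM against 4550 and 1930 in rmCIRBP). The part of those markers in the antiviral levels was not tested. In RNA of whole cultures, fewer cells making a transcript and less of it per cell cannot be told apart.

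**Figure D3:**
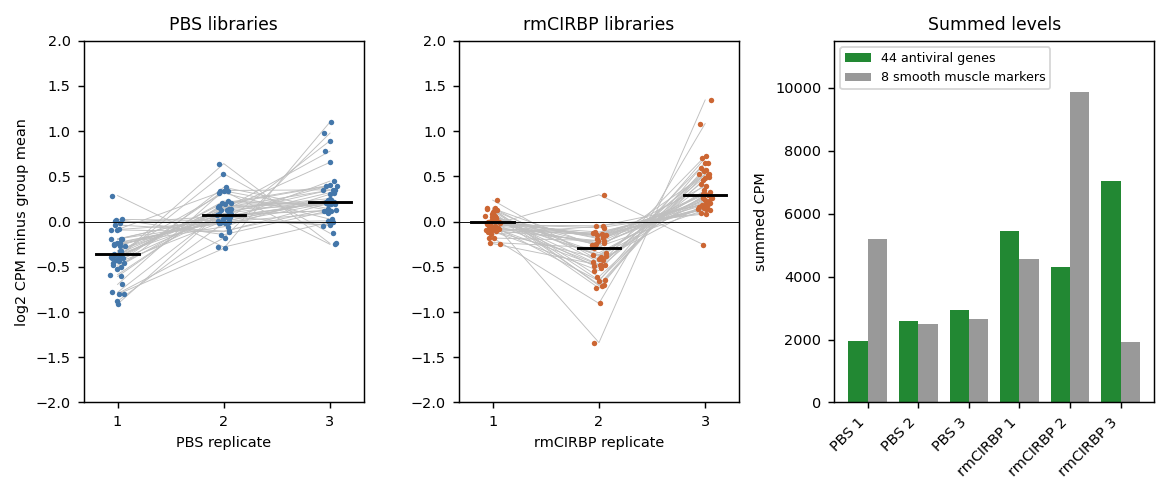
Left and middle, departure of each of the 43 tested genes from its group's mean log2 CPM (offset 0.25) in the PBS and rmCIRBP libraries, with grey lines joining a gene and black bars at the medians. Right, summed CPM of the 44 antiviral genes and of 8 smooth muscle markers in each library. PBS 1 and rmCIRBP 2 have the lowest antiviral and the highest smooth muscle sum of their groups.

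The interferons themselves were barely detected. Ifnb1, interferon-beta, had 0, 2 and 1 counts in PBS 1, 2 and 3 and 0 counts in each rmCIRBP library, where 3 counts, the limit a 0 allows, were worth at most 0.221 CPM. Ifna1, Ifna2, Ifna4, Ifna5, Ifne, Ifnk, Ifng, Ifnl2 and Ifnl3 had no count in any library. The levels at 24 h give no view of earlier times, and a transcript made by few cells could lie below this depth.

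Receptors and signalling genes rose in part. Of the 44 genes of the interferon pathway, a list chosen by role, 32 were tested, 15 were called higher and 0 lower by edgeR (over all genes tested, 6.74% and 4.77%), with a median log2 fold change of 0.68. By an unadjusted edgeR p under 0.05, and by DESeq2 and limma voom, the count lower was 0 as well. Without PBS 2 the count higher was 9. Among the receptors 4 of 5 tested rose. Ifnar2, the high-affinity chain of the type I receptor, was at 46.9, 52.2 and 34.7 CPM in PBS and at 159, 120 and 173 CPM in rmCIRBP, without overlap (log2 fold change 1.76 ± 0.19 SE, edgeR adjusted p = 0.00146). Ifngr1, the ligand-binding chain for interferon-gamma, was at 56.4, 58.3 and 53.7 CPM in PBS and at 105, 118 and 110 CPM in rmCIRBP, with very little spread (log2 fold change 0.99 ± 0.10 SE, edgeR adjusted p = 0.000884).

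Of 7 genes for JAK kinases, STAT proteins and IRF9, 3 were called higher. Jak2, a kinase of the interferon-gamma receptor, was at 66.5, 59.5 and 51.0 CPM in PBS and at 261, 172 and 215 CPM in rmCIRBP (log2 fold change 1.87 ± 0.18 SE, edgeR adjusted p = 0.000778). Every rmCIRBP library was far above the PBS libraries. Irf9, the DNA-binding subunit of the ISRE-binding complex, was at 60.5, 74.2 and 74.9 CPM in PBS and at 89.5, 64.4 and 104 CPM in rmCIRBP, with overlap (log2 fold change 0.30 ± 0.18 SE, edgeR adjusted p = 0.314).

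Of 6 IRF transcription factor genes, 3 were called higher. Irf1, which also binds ISRE sequences, was at 25.4, 28.9 and 33.6 CPM in PBS and at 100, 98.3 and 124 CPM in rmCIRBP (log2 fold change 1.88 ± 0.15 SE, edgeR adjusted p = 0.000305). Irf7, an amplifier of type I interferon, was at 22.3, 36.9 and 44 CPM in PBS and at 94.8, 58.3 and 145 CPM in rmCIRBP (log2 fold change 1.53 ± 0.35 SE, edgeR adjusted p = 0.0305). Irf7 kept the library order of the antiviral genes, and its call ended without PBS 1 (edgeR adjusted p = 0.0548), PBS 2 (0.103), PBS 3 (0.0626), rmCIRBP 1 (0.0793) or rmCIRBP 3 (0.0579).

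Of 9 tested adaptors and kinases that lead to interferon, 3 were called higher. Traf3, an adaptor for interferon induction, was at 37.8, 36.8 and 34.7 CPM in PBS and at 94.5, 111 and 86.9 CPM in rmCIRBP (log2 fold change 1.42 ± 0.12 SE, edgeR adjusted p = 0.000431). Tlr3, the endosomal receptor for double-stranded RNA, was at 12.5, 10.3 and 13.3 CPM in PBS and at 43.2, 36.1 and 50.1 CPM in rmCIRBP (log2 fold change 1.84 ± 0.17 SE, edgeR adjusted p = 0.000630). Its groups were clearly apart, as were those of Traf3. Mavs, the mitochondrial adaptor of RIG-I and MDA5, was not called, at a mean of 41.2 CPM in PBS and 36.4 CPM in rmCIRBP, although its rmCIRBP libraries all lay below PBS (log2 fold change -0.18 ± 0.10 SE, edgeR adjusted p = 0.292). Ticam1, the adaptor of TLR3, was not called either (log2 fold change -0.32 ± 0.17 SE, edgeR adjusted p = 0.251). Mavs and Ticam1 are named after their values were seen. Of 5 feedback genes 2 were called higher. Socs1, which inhibits JAK kinases, was at 9.40, 10.8 and 9.37 CPM in PBS and at 20.2, 14 and 25.1 CPM in rmCIRBP (log2 fold change 1.01 ± 0.22 SE, edgeR adjusted p = 0.0269). Ptpn2, a phosphatase that acts on JAK1, was at 20.5, 15.7 and 14.1 CPM in PBS and at 31.2, 27.5 and 30.5 CPM in rmCIRBP (log2 fold change 0.83 ± 0.16 SE, edgeR adjusted p = 0.0169). Both were higher in every rmCIRBP library. The other feedback genes, Socs3, Pias1 and Ptpn6, were not called, with log2 fold changes of 0.36, -0.13 and 0.77. The call of Ptpn2 ended without PBS 2 (edgeR adjusted p = 0.0744), PBS 3 (0.0611) or rmCIRBP 1 (0.0706). That of Socs1 ended without PBS 1 (edgeR adjusted p = 0.0521), PBS 2 (0.0767), PBS 3 (0.100), rmCIRBP 1 (0.0879) or rmCIRBP 3 (0.0626), and with the replicate block (0.0600).

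**Figure D4:**
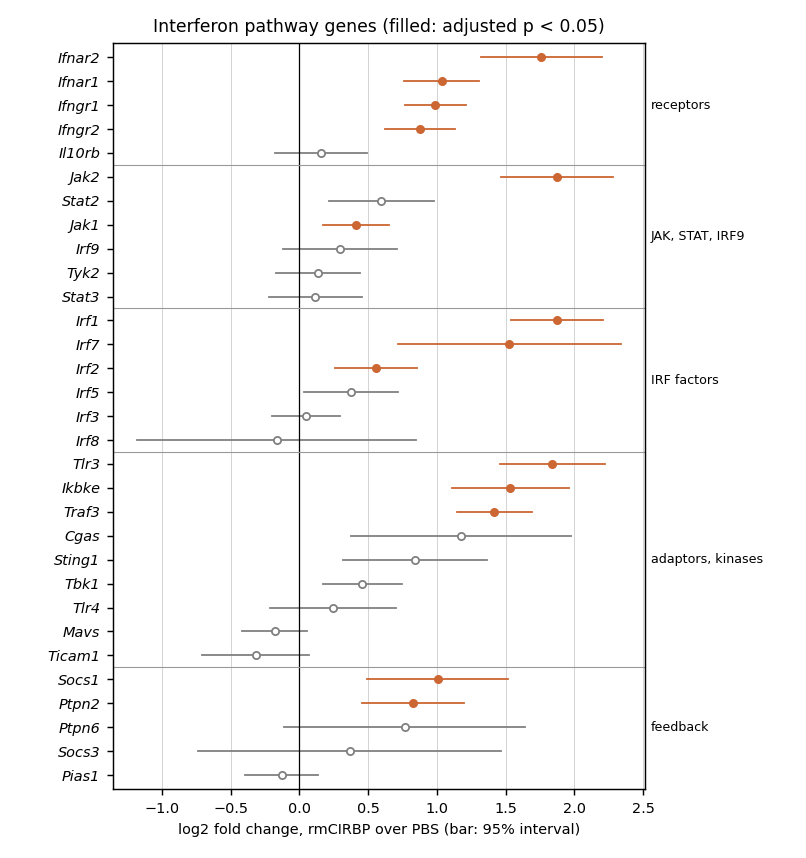
Log2 fold change of 31 tested genes of the interferon pathway, rmCIRBP over PBS, with bars for the 95% interval from edgeR's fit. Filled points (14) passed an adjusted p of 0.05, and open points, Irf9 and Stat2 among them, did not.

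The OAS and guanylate-binding protein families, which interferon also induces, are given beside these for scale. The OAS list holds RNase L, OAS enzymes, some of which make the messenger that activates it, and their relatives. Of its 9 genes 6 were called higher, where 6.74% of all genes tested were. Of 11 guanylate-binding protein genes 8 were tested and called higher. Oas1g, with 0, 1 and 3 counts in PBS 1, 2 and 3, Oas3, with 6, 1 and 4, and Gbp4, with 2, 1 and 2, passed the filter on low counts only through their rmCIRBP libraries. Oas1a, with 5, 12 and 17 counts in PBS, and Gbp11, with 2, 12 and 18, also needed their rmCIRBP libraries to pass it. The counts called in these families are thus partly set by the filter and are not compared with that of the antiviral genes. Among the genes well detected in both groups, and named after their values were seen, Oasl2 had a mean of 68.3 CPM in PBS and 207 CPM in rmCIRBP. Gbp2, a GTPase that attacks the vacuoles of intracellular pathogens, had a mean of 40.8 CPM in PBS and 415 CPM in rmCIRBP. In both families rmCIRBP 2 was the lowest rmCIRBP library for all tested genes but 1, which was in the OAS family.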

How the data were processed

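Per the labels' protocols, libraries were made from polyA-selected RNA. The submitters' processing notes name featureCounts, the build GRCm38 (mm10), R 4.1.2 and DESeq2. The authors deposited raw counts per gene, with 1 column per library. The aligner, annotation release, strand setting and treatment of multi-mapped reads were not given in the sources used here. Columns were matched to samples by group and number, and 2 pathway genes were matched through RefSeq synonyms (Sting1 with Tmem173, Cgas with Mb21d1).

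Genes were filtered with edgeR's filterByExpr, scaled by TMM and tested in edgeR 4.0.16 (R 4.3.3) with a two-sided quasi-likelihood F test over 15801 genes, with treatment as the one term. Benjamini-Hochberg adjustment ran over all of them at 0.05. The SE is the fold change divided by the square root of F. Exon lengths and shared 50-base stretches came from GENCODE M21. On simulated counts for rmCIRBP against PBS (15801 genes, 200 changed), the test recovered 55.4% of 2-fold and 91.9% of 4-fold changes, with 3.92% false calls. Far fewer genes were changed there than the 1818 called in the data, so the rates for these data may differ.

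The members and lists were chosen with earlier results of these data known. Values in every library are given for the 3 genes of each role group with the smallest p and for those not called, and for up to 2 pathway genes per role, Ifnb1, Irf7 and Irf9. Counts over lists include genes whose own values are not reported here. Alternatives were other scalings, filters, tests (DESeq2 1.42.0, limma 3.58.1) and thresholds, protein-coding genes alone, the replicate block and each library left out. No pair of libraries agreed within sampling noise (smallest chi-square per degree of freedom 14.2).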

Additional observations from a re-analysis of the deposited data

How the results depend on the processing

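All 35 antiviral genes called higher kept that direction under every alternative run, and 33 or more of them kept the call under each other scaling, filter or test at an adjusted p of 0.05 in which they were tested, the replicate block included. Protein-coding genes alone left out Mx1 and Mx2 and gave 33. At an adjusted p of 0.01 the count of antiviral genes higher was 19, of pathway genes higher 9 and of all genes changed 608, and at 0.1 the last was 3066. Leaving out 1 library in turn gave 20 to 39 antiviral genes higher, 0 to 1 lower, 9 to 18 pathway genes higher and 723 to 2144 genes changed. The count of antiviral genes lower was 1, Ifi27, with upper quartile scaling, with no filter, in DESeq2, at 0.1, and without PBS 1 and rmCIRBP 2 together, where 2802 genes changed. Ifi27l2a changed sign in limma voom (-0.22) and without 1 library (-0.83 to 0.54). The cause of these shifts was not tested.

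Departures from the group means correlated at -0.107, -0.169 and 0.246 between libraries of number 1, 2 and 3. Between libraries of unlike number the correlations ran from -0.329 (PBS 1 with rmCIRBP 3) to 0.36 (PBS 1 with rmCIRBP 2). With 3 libraries in each group, these values cannot show whether the replicate numbers paired the libraries. With the replicate block 1258 genes changed, 34 antiviral and 12 pathway genes were higher and 0 of either lower, and Ifi27l2a was at -0.14.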
